A study of Mus musculus with 8 samples.

Results

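The genes described here are 10 members of the Bcl2 family of cell-death regulators, measured in the lateral ganglionic eminence (LGE) of mouse embryos. The LGE is the embryonic zone of the ventral forebrain that gives rise to the projection neurons of the striatum. The members were picked by gene symbol with no threshold on a measured value, though earlier results of these data were known. All 10 were found among the 16913 genes of the authors' deposited table. They are the anti-apoptotic genes Bcl2, Bcl2l1, Bcl2l2 and Mcl1, the effector genes Bax and Bak1, and the BH3-only genes Bid, Bbc3, Bcl2l11 and Bad.

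RNA was sequenced from dissected LGE at embryonic day 14.5 in 8 samples of 2 genotypes, 4 samples each. The conditional knockout (Meis2-CKO) carried Dlx5/6-Cre and 2 floxed alleles of Meis2, a homeodomain transcription factor gene (genotype Dlx5/6-Cre;Meis2F/F). The littermate control (Ctrl) carried the same Cre and 1 floxed Meis2 allele (genotype Dlx5/6-Cre;Meis2F/+), so it is not a wild type. All embryos were of mixed C57BL/6J and CD1 background. Dlx5/6-Cre acts in Dlx-expressing cells of the ventral forebrain, and other cells of the dissected tissue keep functional Meis2. The values are the authors' means per genotype, with no spread between embryos, and the sequencing depth is unknown. No test was run on single libraries, and every call rests on the p-values in the authors' deposited table.

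The Bcl2 family decides whether the outer mitochondrial membrane stays closed. Bax and Bak1 proteins form the pores that release cytochrome c, the anti-apoptotic proteins hold them and their activators in check, and the BH3-only proteins relay stress or loss of survival signals by binding the anti-apoptotic proteins or by activating the effectors. In the embryonic mouse brain, loss of Bcl2l1 kills young neurons, loss of Mcl1 kills neural progenitors, and loss of Bax spares neurons that would otherwise die.

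The short BH3 region is the feature that joins the family, since a BH3 helix of one member sits in a groove of another. The coding segment of this region is shown for all 10 members because it is what they have in common across their 3 roles. A search of the longest complete coding sequence of each gene for a leucine or methionine codon, 3 further codons, a glycine, alanine or serine codon, an aspartate codon and then an aspartate, glutamate or glycine codon gave 1 match per member. Methionine was allowed in the leading place after leucine alone had given no match in Bcl2l2. The alanine option served only Bbc3, the serine option only Bad and the last glycine option only Mcl1. A match in every member is therefore not a test of the pattern. The 27 bases below come from the GENCODE M21 transcripts (GRCm38), 5′ to 3′ on the coding strand. Capitals mark the leading codon and the pair of codons that ends in aspartate. The pattern itself is loose, being present in 212 of 4242 listed genes with coding sequences no longer than that of Mcl1, the longest member, at 331 codons.
Bcl2 at chr1:106712575-106712601, minus strand: CTCcgccgggctGGGGATgacttctct
Bcl2l1 at chr2:152829697-152829723, minus strand: CTGagagaggcaGGCGATgagtttgaa
Bcl2l2 at chr14:54884517-54884543, plus strand: ATGcgggctgctGGAGACgagtttgag
Mcl1 at chr3:95659436-95659462, plus strand: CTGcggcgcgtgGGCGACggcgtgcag
Bax at chr7:45465997-45466023, minus strand: CTCcggcgaattGGAGATgaactggac
Bak1 at chr17:27022531-27022557, minus strand: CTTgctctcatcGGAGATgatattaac
Bid at chr6:120897289-120897315, minus strand: CTCgcccaaataGGCGATgagatggac
Bbc3 at chr7:16313773-16313799, plus strand: CTGcggcggatgGCGGACgacctcaac
Bcl2l11 at chr2:128147150-128147176, plus strand: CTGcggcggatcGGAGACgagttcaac
Bad at chr19:6950792-6950818, plus strand: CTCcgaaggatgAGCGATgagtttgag

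Bcl2l2 was the member with a methionine codon in the leading place. The glycine codon was replaced by an alanine codon in Bbc3 and by a serine codon in Bad, both BH3-only genes, and was kept in the other members. Each segment lay within a single exon.

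No member of the family was called different between the genotypes. None of the 10 members passed an adjusted p of 0.05 in the authors' deposited table, and none had an unadjusted p under 0.05. Over all 16913 genes, 132 passed the adjusted threshold (0.78%) and 367 had an unadjusted p under 0.05 (2.17%). All members are protein-coding, and over the 13643 protein-coding genes alone 40 passed when the deposited p-values were adjusted again (0.293%) and 185 had an unadjusted p under 0.05 (1.36%). At shares this low a count of 0 of 10 lies near the background and is not a result particular to the family. The deposited log2 fold changes (Meis2-CKO over Ctrl) of the members ran between -0.10 and 0.20, with 5 above 0 and 5 below, of which Mcl1 changed side when the values were centred on the median of all genes. Their median was -0.0057, beside 0.012 for all genes, and their median size was 0.082, beside 0.107 for all genes. The size for all genes includes many genes of lower level than any member, so sizes at like level are given below. The unadjusted p-values of the members ran between 0.512 and 0.970 in the authors' deposited table, and all had an adjusted p of 0.999987. The deposited p-values lean high in general, with 80.2% of all genes over 0.5.

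Meis2 itself, at chromosome 2, 115863064 to 116065839 (GRCm38), had authors' means of 140.4 in Meis2-CKO and 204.5 in Ctrl. In the authors' deposited table it fell by 0.53 on the log2 scale, with an adjusted p of 0.00195. The value covers the whole gene, and transcripts lacking the floxed exons may be counted in it.

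Levels of different genes may be compared only if the signal is scaled by gene length, and its unit is not named. When protein-coding genes were split into 5 equal bins of exon length, the median length was 1724 nt in the first bin and 10060 nt in the last. The median signal differed far less between those bins, at 8.72 and 14.3 in Meis2-CKO and at 9.18 and 14.2 in Ctrl. The orders of levels below take the signal as scaled by length on that ground. No order between neighbouring genes was tested, since the means carry no spread and the columns per library, which match no sample label, were not used.

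**Figure D1:**
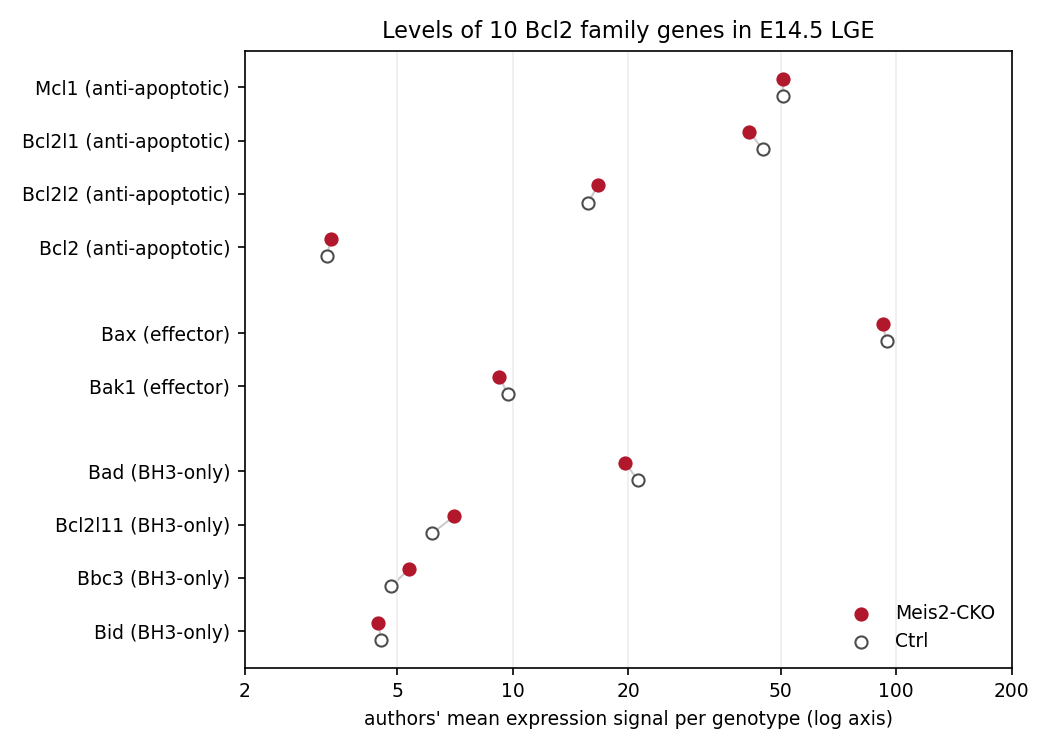
Authors' mean expression signal of each member (log axis) in Meis2-CKO (filled points, upper) and Ctrl (open points, lower), grouped by role. Bax is highest, at 92.2 in Meis2-CKO and 94.3 in Ctrl, Bcl2 is lowest, at 3.36 in Meis2-CKO and 3.28 in Ctrl, and the paired points lie close together for every gene.

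Among the anti-apoptotic genes Mcl1 and Bcl2l1 gave most of the signal. Mcl1 (chromosome 3, 95658788 to 95663176), which encodes a short-lived guard of Bak1 and Bcl2l11 proteins, had authors' means of 50.6 in Meis2-CKO and 50.8 in Ctrl. In the authors' deposited table its log2 fold change was 0.0060 (unadjusted p = 0.966). The deposited sign is opposite to that of the plain ratio of the means, because the deposited value is corrected for the summed signal of each genotype. Bcl2l1 (chromosome 2, 152780668 to 152831728), which encodes Bcl-xL and by alternative splicing the pro-apoptotic Bcl-xS, had authors' means of 41.4 in Meis2-CKO and 44.8 in Ctrl. Its log2 fold change of -0.10 had the smallest unadjusted p of the family in the authors' deposited table (0.512), and the value stands for the whole gene, which has 9 annotated transcripts.

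The remaining anti-apoptotic genes were lower in both genotypes. Bcl2l2 (chromosome 14, 54883377 to 54888234), which encodes Bcl-w, had authors' means of 16.7 in Meis2-CKO and 15.7 in Ctrl, a log2 fold change of 0.10 by the authors' deposited table (unadjusted p = 0.688). Bcl2, the founding gene of the family (chromosome 1, 106538178 to 106714274), had authors' means of 3.36 in Meis2-CKO and 3.28 in Ctrl, a log2 fold change of 0.046 by the authors' deposited table (unadjusted p = 0.933). Bcl2 was therefore the lowest of the 10 members, below every pro-apoptotic one, and lay at percentile 35.8 of all listed genes in Meis2-CKO and 34.9 in Ctrl.

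The effectors stood far apart in level. Bax (chromosome 7, 45461697 to 45466898) was the highest member, with authors' means of 92.2 in Meis2-CKO and 94.3 in Ctrl, at percentile 94.6 of all genes in Meis2-CKO and 94.7 in Ctrl. In the authors' deposited table its log2 fold change was -0.020 (unadjusted p = 0.861). Bak1 (chromosome 17, 27019810 to 27029009), which encodes the effector resident on mitochondria, had authors' means of 9.23 in Meis2-CKO and 9.74 in Ctrl, with a log2 fold change of -0.064 by the authors' deposited table (unadjusted p = 0.845). Both effectors thus had slightly lower means in the knockout, and neither passed.

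Bad was the most abundant of the BH3-only genes. It encodes a sensor of growth-factor signalling that 14-3-3 proteins hold when it is phosphorylated (chromosome 19, 6941861 to 6951899), and its authors' means were 19.6 in Meis2-CKO and 21.2 in Ctrl, a log2 fold change of -0.10 by the authors' deposited table (unadjusted p = 0.651). Bid (chromosome 6, 120891930 to 120916853), whose product links death receptors to mitochondria once caspase 8 cuts it, had authors' means of 4.45 in Meis2-CKO and 4.55 in Ctrl. Its log2 fold change was -0.018 in the authors' deposited table (unadjusted p = 0.970).

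The other BH3-only genes had the largest fold changes of the family, both above 0. Bcl2l11 (chromosome 2, 128126038 to 128162547), which encodes Bim, a BH3-only protein induced when neurons lose trophic support, had authors' means of 7.05 in Meis2-CKO and 6.17 in Ctrl. Its log2 fold change of 0.20, a fold of 1.15, did not pass in the authors' deposited table (unadjusted p = 0.608). Bbc3 (chromosome 7, 16308393 to 16318205), which encodes the p53 target Puma, had authors' means of 5.36 in Meis2-CKO and 4.81 in Ctrl, a log2 fold change of 0.17 by the authors' deposited table (unadjusted p = 0.707). Bcl2l11 lies on the same chromosome as Meis2, as does Bcl2l1, and any bearing of this on their values was not tested.

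The smallest difference that was called varied with the level of the gene. Bands of level were set after the values were seen, by the higher of the genotype means. Between 3 and 10, where Bcl2, Bid, Bbc3, Bcl2l11 and Bak1 lie, 54 of 3352 genes were called in the authors' deposited table, the smallest at a size of 1.60 on the log2 scale (3.04-fold). Between 10 and 40, the band of Bcl2l2 and Bad, 52 of 5262 genes were called, the smallest at 0.71 (1.64-fold). Between 40 and 100, the band of Bcl2l1, Mcl1 and Bax, 13 of 1871 genes were called, the smallest at 0.51 (1.42-fold). All members lay well inside these sizes. No gene at the level of Bcl2l11 or Bbc3 was called with a smaller difference than 1.60, so the lack of a call says less about these BH3-only genes than about Bcl2l1, Mcl1 and Bax.

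Spread within a band gives another view of the largest values. In the band of Bcl2l11, 28.6% of genes had a log2 fold change of at least its size in either direction. In the band of Bcl2l1, the corresponding share was 26.5%. The median size over all genes was 0.117 between 3 and 10, 0.076 between 10 and 40 and 0.059 between 40 and 100. Bcl2l11, Bbc3, Bcl2l2, Bad and Bcl2l1 lay above the median size of their band, and Bcl2, Bid, Bak1, Mcl1 and Bax lay below it.

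**Figure D2:**
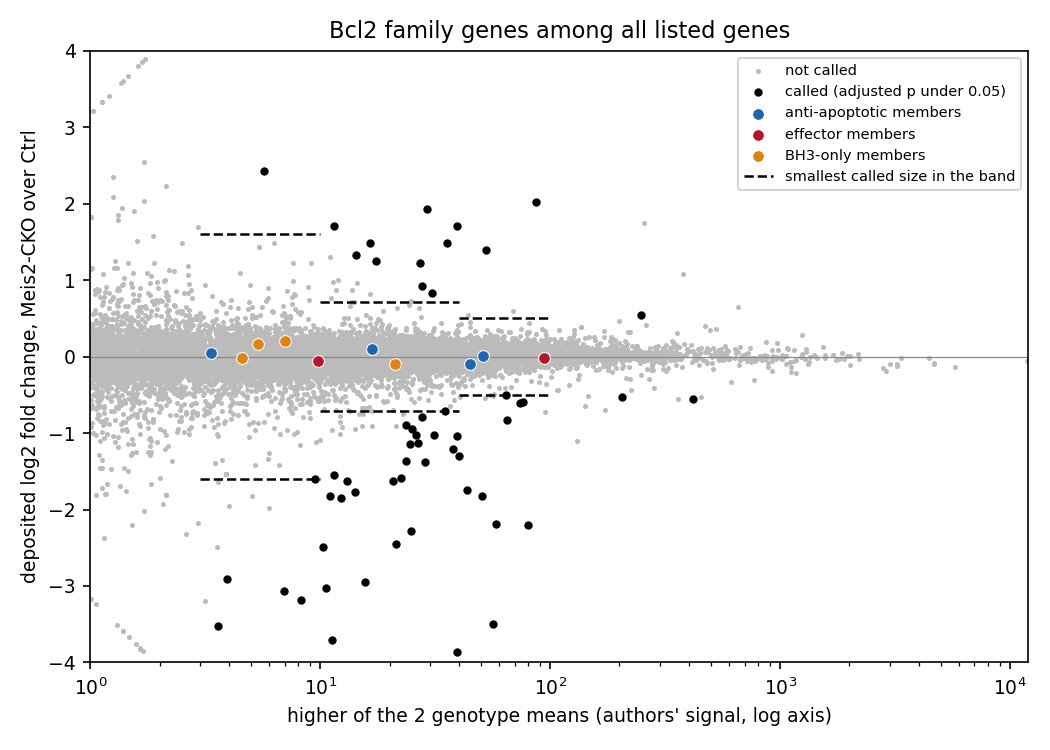
Deposited log2 fold change (Meis2-CKO over Ctrl) against the higher of the genotype means (log axis) for 13823 genes with a mean of at least 1; a further 76 lie past the vertical axis. Black points were called, dashed lines mark the smallest called size in each band of level, and the 10 coloured members lie near 0, between -0.10 and 0.20.

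The order of the members by level was identical in both genotypes, namely Bax, Mcl1, Bcl2l1, Bad, Bcl2l2, Bak1, Bcl2l11, Bbc3, Bid and Bcl2. The summed signal of the 10 genes was 249.9 in Meis2-CKO and 255.4 in Ctrl. The anti-apoptotic genes made up 44.8% of it in Meis2-CKO and 44.9% in Ctrl, the effectors 40.6% in Meis2-CKO and 40.7% in Ctrl, and the BH3-only genes 14.6% in Meis2-CKO and 14.4% in Ctrl. Bax alone made up 36.9% in each genotype.

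The ratio of summed anti-apoptotic to summed pro-apoptotic signal was 0.813 in Meis2-CKO and 0.814 in Ctrl. Without Bax, a choice made after the levels were seen, it was 2.45 in Meis2-CKO and 2.47 in Ctrl. With further family genes assigned to a side and added, it was 0.409 in Meis2-CKO and 0.429 in Ctrl. Those counted as pro-apoptotic included Bnip3 (16.2 in Meis2-CKO, 15.6 in Ctrl) and the mitophagy receptor gene Bnip3l. Bnip3l had the highest level of the genes added (102.1 in Meis2-CKO, 93.3 in Ctrl), and the ratio was not computed without these genes. From geometric means of the members the ratio was 1.56 in Meis2-CKO and 1.58 in Ctrl. The size of the ratio thus depends on which genes are summed and how. The ratio of Bcl2l1 to Bax was 0.449 in Meis2-CKO and 0.475 in Ctrl. Mcl1 stood at 7.18 times the level of Bcl2l11 in Meis2-CKO and 8.23 times in Ctrl, the widest difference on the log2 scale among the 6 pairs computed (-0.20), again without a spread to test it against. These are ratios of RNA and carry no information on protein or on its binding state.

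**Figure D3:**
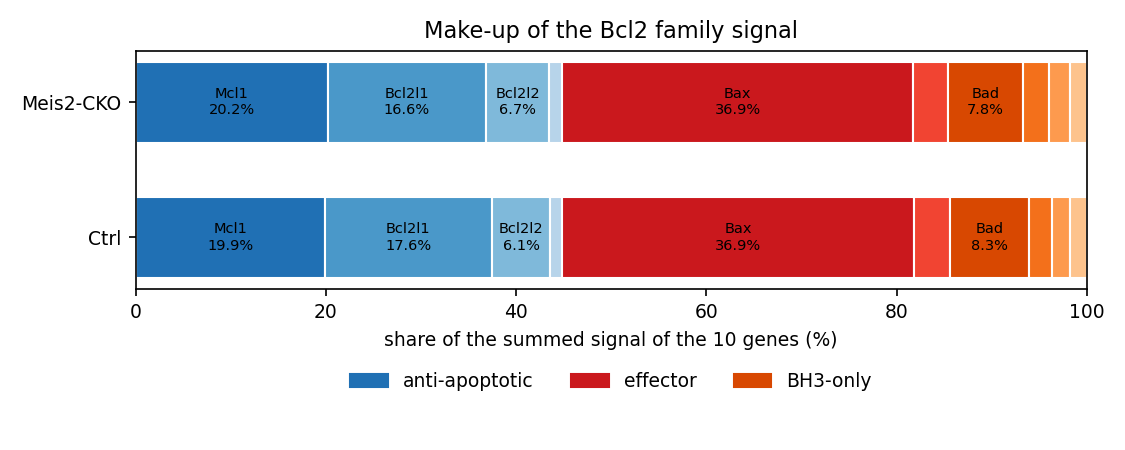
Share of the summed signal of the 10 members (percent, axis from 0) in Meis2-CKO (upper bar) and Ctrl (lower bar), coloured by role. The anti-apoptotic share is 44.8% in Meis2-CKO and 44.9% in Ctrl, and Bax takes 36.9% of each bar.

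Several members share exon sequence with neighbouring genes, and the sources used here do not say whether counting used strand. Bak1 shares 25.5% of its exon length with Ggnbp1 on the other strand, and Bad shares 20.5% with Gpr137, also on the other strand. Bid shares 17.7% with Bcl2l13, itself a Bcl2 family gene, which had authors' means of 21.6 in Meis2-CKO and 22.1 in Ctrl, several times those of Bid. Bcl2l2 shares 13.3% with the predicted gene Gm20521 on its own strand, listed at 0.108 in Meis2-CKO and 0.460 in Ctrl. Bax shares 12.2% with a predicted gene on its own strand and Bcl2 shares 6.09% with an antisense transcript. Bcl2l1, Mcl1, Bbc3 and Bcl2l11 share no exon sequence with another annotated gene. The levels of the overlapping members are therefore uncertain. The shared length does not set the size of this uncertainty, which also depends on the level of the neighbour and was not tested.

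The wider family gave no call either. Of 15 further family genes, 10 were listed, 6 with a log2 fold change above 0 and 4 below, with a median of 0.035. The mitophagy receptor gene Bnip3l had the smallest unadjusted p of these, with authors' means of 102.1 in Meis2-CKO and 93.3 in Ctrl (log2 fold change 0.14 by the authors' deposited table, unadjusted p = 0.223). Bcl2l12 had authors' means of 14.8 in Meis2-CKO and 13.1 in Ctrl, with an unadjusted p of 0.481 in the authors' deposited table. Singled out after their values were seen, the effector relative Bok had authors' means of 16.1 in Meis2-CKO and 16.3 in Ctrl, and the BH3-only gene Hrk had 0.330 in Meis2-CKO and 0.610 in Ctrl. The other 5, Bcl2a1a, Bcl2a1d, Bcl2l10, Bcl2l14 and Pmaip1 (Noxa), were not analysed here.

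Caspase inhibitors and their antagonists held 7 listed genes of 7, with no call and a median of 0.033. Birc5 (survivin), which also serves mitosis, had authors' means of 95.4 in Meis2-CKO and 86.4 in Ctrl (log2 fold change 0.16 by the authors' deposited table, unadjusted p = 0.183). Birc2, an inhibitor of apoptosis and ubiquitin ligase, had authors' means of 31.3 in Meis2-CKO and 34.6 in Ctrl, with an unadjusted p of 0.454 in the authors' deposited table. The 8 mitochondrial partner genes had a median of -0.0067 and no call. Among them Aifm1 had authors' means of 30.1 in Meis2-CKO and 27.3 in Ctrl and the channel gene Vdac1 133.7 in Meis2-CKO and 140.0 in Ctrl, with unadjusted p-values of 0.424 and 0.594 in the authors' deposited table.

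Inputs to the family were examined in 3 lists. In the death receptor arm 8 of 10 genes were listed, 7 lay above 0 and 1 below, and the median of 0.19 was the largest of the 6 cell-death lists given here, with no call and no unadjusted p under 0.05. Its Cflar, which encodes the caspase 8 inhibitor c-FLIP, had authors' means of 9.79 in Meis2-CKO and 7.66 in Ctrl (log2 fold change 0.36 by the authors' deposited table, unadjusted p = 0.290). Ripk1, a kinase at the receptor complex, had authors' means of 4.48 in Meis2-CKO and 3.93 in Ctrl, with an unadjusted p of 0.686 in the authors' deposited table. All genes of this list had means under 10. Between 3 and 10 only large differences were called. Some genes of the list, such as Ngfr, lay under 3, where the smallest called size was not computed.

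Of 10 transcriptional inputs 9 were listed, with a median of 0.041 and no call. Trp53, which encodes p53, an activator of Bbc3 and Bax, had authors' means of 50.4 in Meis2-CKO and 45.5 in Ctrl (log2 fold change 0.16 by the authors' deposited table, unadjusted p = 0.278). E2f1, a cell-cycle factor able to induce death genes, had authors' means of 28.5 in Meis2-CKO and 24.8 in Ctrl, with an unadjusted p of 0.282 in the authors' deposited table. The 11 kinase, ubiquitin ligase, deubiquitinase (Usp9x) and 14-3-3 genes that act on the member proteins had a median of -0.014 and no call. Mapk9, a JNK kinase gene, had authors' means of 27.4 in Meis2-CKO and 30.7 in Ctrl, and the 14-3-3 gene Ywhab 104.5 in Meis2-CKO and 111.1 in Ctrl, with unadjusted p-values of 0.414 and 0.486 in the authors' deposited table. Over these 6 lists together 53 of 61 genes were listed, 33 above 0 and 20 below, and none was called or had an unadjusted p under 0.05, beside 0.78% and 2.17% of all genes. All 53 are protein-coding, and the shares over protein-coding genes were 0.293% and 1.36%. Counts of 0 lie near these shares.

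**Figure D4:**
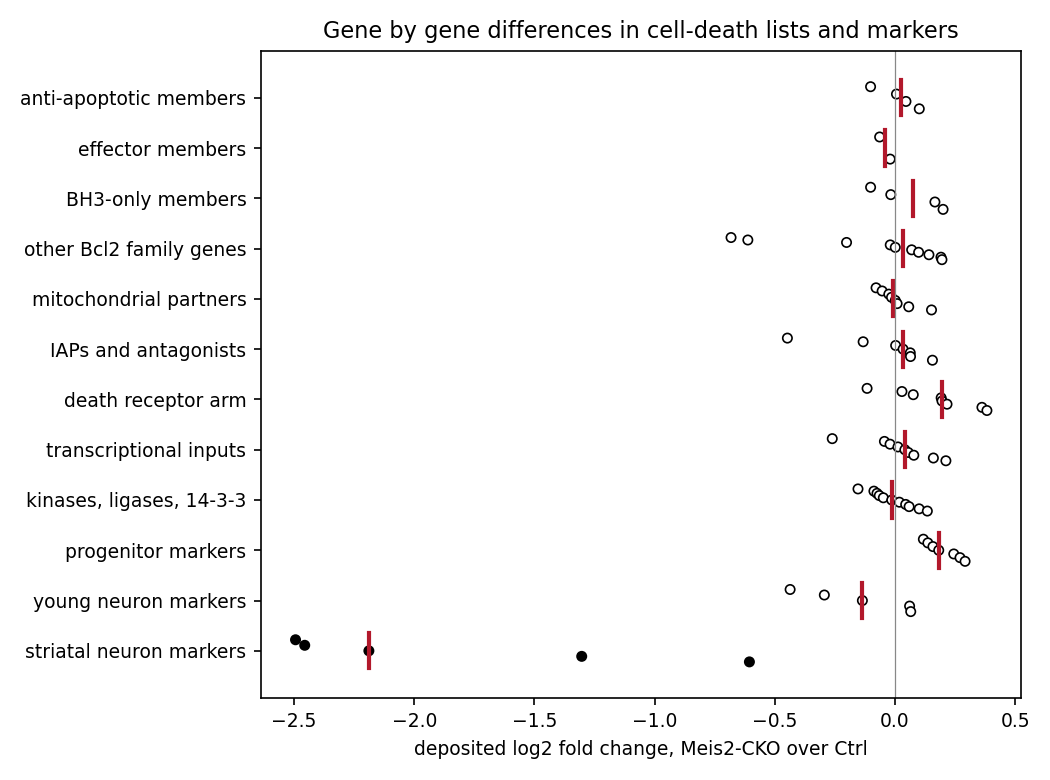
Deposited log2 fold change (Meis2-CKO over Ctrl) of each listed gene in the family, in the cell-death lists and in 3 marker lists. Filled points were called, open points were not, and red bars are list medians; the 5 striatal neuron markers are the filled points, between -2.49 and -0.61, while family and cell-death genes lie between -0.68 and 0.38.

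Cell make-up of the tissue bears on all these values, because in bulk RNA fewer cells of a type and less RNA per cell cannot be told apart. All 5 striatal neuron markers fell, with a summed signal of 82.3 in Meis2-CKO and 203.7 in Ctrl. Bcl11b had authors' means of 48.2 in Meis2-CKO and 74.1 in Ctrl, and Isl1 12.5 in Meis2-CKO and 57.9 in Ctrl (adjusted p = 0.0013 and 7.8e-26 in the authors' deposited table). All 7 progenitor markers lay above 0 with no call, Nes alone having an unadjusted p below 0.05 (p = 0.0123 by the authors' deposited table), with a summed signal of 1846 in Meis2-CKO and 1637 in Ctrl, of which Fabp7 and Vim were the most abundant. Young neuron markers, led by Tubb3 and Map2, summed to 1472 in Meis2-CKO and 1615 in Ctrl, with 2 of 5 above 0 and no call. By the authors' deposited table, an unadjusted p under 0.05 was reached by 2 of these, Gap43 (log2 fold change -0.44, unadjusted p = 0.00365) and Stmn2 (log2 fold change -0.29, unadjusted p = 0.0344). The part of these shifts in the family values was not tested.

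Markers of cells from outside the LGE lineage gave no call. The 5 pallial markers, led by Neurod6 and Tbr1, summed to 159.6 in Meis2-CKO and 138.0 in Ctrl, all above 0, and Neurog2 alone of them had an unadjusted p below 0.05 (log2 fold change 0.52, p = 0.0155 by the authors' deposited table). The 6 microglial markers, led by C1qb and P2ry12, summed to 43.9 in Meis2-CKO and 42.6 in Ctrl, and the 5 endothelial markers, led by Cldn5 and Pecam1, to 40.7 in Meis2-CKO and 39.96 in Ctrl. The 6 red blood cell markers, led by Hba-a1 and Hbb-bs, summed to 2710 in Meis2-CKO and 2695 in Ctrl, although reads may be split among the highly similar globin genes. No marker of any list was at 0 in either genotype. Erythroid cells rely on Bcl2l1, and its part from blood was not tested.

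Genes that track embryo sex were uneven between the genotypes. Eif2s3y on the Y chromosome fell in the authors' deposited table (adjusted p = 1.02e-16), with authors' means of 14.02 in Meis2-CKO and 50.5 in Ctrl. Xist had 255.7 in Meis2-CKO and 78.0 in Ctrl and did not pass (log2 fold change 1.74, unadjusted p = 0.0136 in the authors' deposited table). No member lies on a sex chromosome, but genes on other chromosomes can also differ by sex. A difference of sex make-up and one of genotype cannot be told apart in these means. The X-linked pathway genes Xiap, Huwe1, Usp9x and Aifm1, singled out after their values were seen, had log2 fold changes of 0.064, 0.044, 0.018 and 0.15 in the authors' deposited table, none called.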

How the data were processed

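RNA from 4 Meis2-CKO and 4 Ctrl samples was analysed as 1 deposited table. The submitters' processing notes list FastQC 0.11.5, HISAT2 2.1.0, StringTie 1.3.1, GRCm38.p2 and mm10, without saying what each was used for. Per the file headers, the mean expression signal of each genotype was averaged by the authors; its unit is not named. Per the file headers, the authors also gave a log2 fold change (Meis2-CKO over Ctrl), a p-value and an adjusted p-value. Which tool made them is not given in the sources.

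Recomputed here, the deposited log2 fold change equals the log2 ratio of means scaled to equal column sums (543246 in Meis2-CKO, 547952 in Ctrl) with 0.125 added in proportion to those sums, with a median difference of 3.8e-09 and a largest of 0.019. Adjusting the deposited p-values by Benjamini-Hochberg across the 16913 genes returned the deposited adjusted p. A further 8 columns, 1 per library, have names that fit no sample label and were left unused. The count and limma fits planned were therefore replaced by the deposited p-values.

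Members and lists were chosen with earlier results of these data known. One of the gene lists planned for the pathway is not reported here. All members were named, then up to 3 called genes per list or otherwise the 2 with the smallest p, and for markers the 2 highest means. Gene places, exon overlaps and coding segments came from GENCODE M21 on GRCm38. The adjustment and log2 ratio were tested on simulated data. Python 3.11.15, numpy 2.4.6, pandas 2.3.3 and matplotlib 3.10.9 were used.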

Additional observations from a re-analysis of the deposited data

How the results depend on the processing

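No member was called under any of the 5 alternatives to the deposited adjusted p. This outcome was fixed in advance, because each alternative reuses the deposited p-values and no adjustment lowers them. The smallest unadjusted p of a member in the authors' deposited table was 0.512. Over all genes, 132 calls became 51 when adjusted again over genes of 300 nt of exon or more and 40 over protein-coding genes. Of the 132, 75 left the first test, 74 of them with under 300 nt of exon, and 6 stayed in it without passing. From the second test 85 left, of which 74 had under 300 nt of exon and 11 were longer genes that are not protein-coding, and 7 stayed without passing. The counts were 134 over genes with a mean of at least 1, 106 with the Benjamini-Yekutieli adjustment and 128 at a fold change of at least 1.5.

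The direction of 9 of the 10 members held under every alternative scaling or pseudocount. These settings rework the same genotype means, so a kept sign is no evidence for a direction. Mcl1 went below 0, at -0.0063 with 1 added to each mean, -0.0064 with 0.1 added and -0.0056 after subtracting the median of all genes, because those values are not corrected for the summed signal or are centred on a positive median. The log2 difference of the anti-apoptotic to pro-apoptotic ratio (Meis2-CKO over Ctrl) was -0.0021. It was -0.029 without the highest member on each side, -0.015 from geometric means and, added after the levels were seen, -0.0078 without Bax. With further family genes added it was -0.066. That sum left out Bcl2l12, Bcl2l13 and Bcl2l15 and counted Bnip3 and the mitophagy receptor gene Bnip3l as pro-apoptotic.

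Leaving out replicates and other normalizations were not run, because no library was matched by name. No paired analysis was possible because the columns per library carry no sample name or replicate number. Without depth or spread, small differences were not bounded for any of the 10 members. The smallest called size was largest in the band of the 5 members with means under 10.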
